A study of Mus musculus with 8 samples.

Results

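The genes described here are 48 mouse genes for cytokines, chemokines, their receptors and the NF-kB pathway, measured in RNA from tagged ribosomes of hippocampal neurons with and without a floxed Ctcf gene. Ctcf encodes a DNA-binding factor with zinc fingers that helps to shape chromatin loops. The genes were taken by name: every non-control probe of the array that carried one of the 48 gene names was used, which gave 58 probes of 55663. Of the 48 genes, 26 encode secreted signals, 3 encode receptors and 19 belong to the NF-kB pathway or its targets, and 36 could be tested among 29529 genes in all.

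The 4 CKO mice carried Ctcf loxP/loxP, Camk2a-Cre and Ribotag. The 4 WT mice carried wild type Ctcf with the same Camk2a-Cre and Ribotag, so both groups had the Cre and the tag. This follows the sample labels; the series' design text describes the controls instead as Ctcf loxP/loxP, without naming Cre. All mice were C57BL/6, naive, untreated and at least 3 months old, with 3 males and 1 female per group. Ribotag is the Rpl22-tsam1.1Psam/J allele, in which Cre activates an HA-tagged ribosomal protein; Camk2a-Cre is active mainly in excitatory forebrain neurons. Ribosomes with their RNA were pulled down with anti-HA antibody from whole hippocampus, so RNA of other cells that stayed with the beads is part of the sample, and fewer cells of a type and less RNA per cell cannot be told apart. Each mouse gave 1 array of 1 colour.

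Tumour necrosis factor and the interleukin-1 ligands are alarm signals, which in brain come largely from microglia, and chemokines draw leukocytes along a gradient. Many of these signals lead to the IKK kinase complex. IKK marks the inhibitory IkB proteins for breakdown, which frees the NF-kB dimers to enter the nucleus. The dimers switch on cytokines, adhesion molecules and survival genes, and also their own inhibitors, such as IkB alpha and A20. The series' title names abnormal microglia and inflammation-related transcription, and the comparison asks whether this signalling differed in the ribosome-bound RNA of CKO neurons.

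The probes of 3 central NF-kB pathway genes are shown because each value below is the brightness of a 60-base probe such as these. They are given 5′ to 3′, as the scanner files hold them, in lower case throughout since no base is singled out. The Nfkb1 probe lies on chromosome 3 at 135254550 to 135254609 and the Nfkbib probe on chromosome 7 at 29544160 to 29544219 (mm9). The files give no position for the Nfkbia probe.
Nfkb1: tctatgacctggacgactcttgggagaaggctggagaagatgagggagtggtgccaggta
Nfkbia: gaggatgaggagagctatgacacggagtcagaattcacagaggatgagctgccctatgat
Nfkbib: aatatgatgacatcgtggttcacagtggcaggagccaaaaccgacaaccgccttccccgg

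Promoter sequences were searched because NF-kB acts there on several of these genes. In the RefSeq promoter table (GRCm38.p6, 250 bases before to 50 after each listed start), 36 of the 48 genes had an entry. Some genes have several starts there, and a gene was counted if any of its starts held a match. The kappa B consensus, the short palindromic element that NF-kB dimers bind, was found in 18 of these 36 (50%), against 3400 of 27025 genes in the table (12.6%). It reads the same on both strands, and overlapping matches were joined. Of the 5 IkB family and feedback genes, 4 held a match. A match is a description of these letters and not a measured binding site. The stretches below are the 100 bases before the start, with the matches in capitals, for an NF-kB subunit, its inhibitor IkB alpha and 3 secreted signals. They lie at chr12:55492648-55492747 (minus strand, Nfkbia), chr19:46304637-46304736 (plus strand, Nfkb2), chr5:90891145-90891244 (plus strand, Cxcl1), chr5:90903799-90903898 (plus strand, Cxcl2) and chr5:30013014-30013113 (plus strand, Il6), all in GRCm38.p6.
Nfkbia: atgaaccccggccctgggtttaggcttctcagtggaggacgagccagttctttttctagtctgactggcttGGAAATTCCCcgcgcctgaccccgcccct
Nfkb2: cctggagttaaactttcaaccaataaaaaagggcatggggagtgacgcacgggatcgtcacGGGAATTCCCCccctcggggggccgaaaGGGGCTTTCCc
Cxcl1: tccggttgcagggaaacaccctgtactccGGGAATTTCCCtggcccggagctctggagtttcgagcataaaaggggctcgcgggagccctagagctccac
Cxcl2: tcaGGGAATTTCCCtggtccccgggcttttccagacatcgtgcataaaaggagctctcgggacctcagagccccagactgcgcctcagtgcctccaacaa
Il6: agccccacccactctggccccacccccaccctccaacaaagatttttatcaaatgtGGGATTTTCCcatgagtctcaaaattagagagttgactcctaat
Cxcl1 and Cxcl2 share the same 11 letters in capitals, a pair of overlapping matches in each. Nfkb2 also has such a pair, and a further match close to the start. The 14 tested genes with a match had a median log2 difference, CKO minus WT, of -0.12, and the 14 tested genes without one also had -0.12.

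Values are log2 of the background-subtracted spot signal minus the 75th percentile of that array, so 0 is the 75th percentile, and levels are compared between mice for 1 probe, never between probes. Between 72.2% (CKO 3) and 81.5% (WT 1) of probes were well above background. The arrays lie on 3 slides: WT 1 alone on slide 1, CKO 1, CKO 2, WT 2 and WT 3 on slide 2, and CKO 3, CKO 4 and WT 4 on slide 3. The first principal component held 54.4% of the variance and set the slide 3 arrays (CKO 3 at 127.6, CKO 4 at 29.6, WT 4 at 50.5) apart from the others (-67.4 to -14.6). Ctcf itself had -2.56, -2.42, -1.97 and -2.02 in CKO 1 to 4, against -1.11, -1.75, -1.47 and -1.15 in WT 1 to 4. All CKO values lay below all WT values, at 54.8% of WT on average (exact two-sided permutation p = 0.0286, the smallest that 4 against 4 allows; limma adjusted p = 0.724). Over all 29529 genes the median difference was -0.08, and scaling arrays by their median in place of the 75th percentile moved it to 0.07.

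None of the 36 tested genes passed the threshold of 0.05 on limma's Benjamini-Hochberg adjusted p, which 1 of all 29529 genes passed (0.00339%). The smallest adjusted p among them was 0.724. At an unadjusted limma p under 0.05, 1 of the 36 was lower in CKO (Bcl3), beside 828 of all genes (2.80%), and 0 were higher, beside 737 of all genes (2.50%). That split of all genes became 542 lower and 891 higher with median scaling, and 331 lower and 1047 higher with the authors' deposited values. In 0 of the 36 did the 4 CKO values lie wholly above or below the 4 WT values, whereas 980 of all genes (3.32%) did so. The median of the 36 differences was -0.11, with 13 genes higher and 23 lower in CKO. Of all 29529 genes, 12265 were higher and 17264 lower. For the 36 genes, median scaling gave 21 higher and 15 lower, and quantile normalization 18 and 18. The 95% interval lay within a 2-fold change in either direction for 24 of the 36 (66.7%), against 73.3% of all genes.

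The first question is which of these signals left a measurable trace at all. The arrays marked 30 of the 48 genes as well above background in all 8 mice and 6 more in 4 to 7 mice, and these 36 were tested. Another 8 were not well above background in any mouse: the interleukins Il6, Il10, Il12a and Il15, the chemokines Ccl3, Ccl12 and Cxcl16, and Myd88, the adaptor below the interleukin-1 and Toll-like receptors. Values of these 8 are background-level signals, many of them the surrogate that the scanner software sets, and they have no order. Il6st, the shared signalling receptor of the interleukin-6 family, and Nfkbie, an IkB protein, were each above background in 1 CKO and 1 WT mouse. Ccl4 was above background in 0 CKO mice and 1 WT mouse, and no fold can be given for it.

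**Figure D1:**
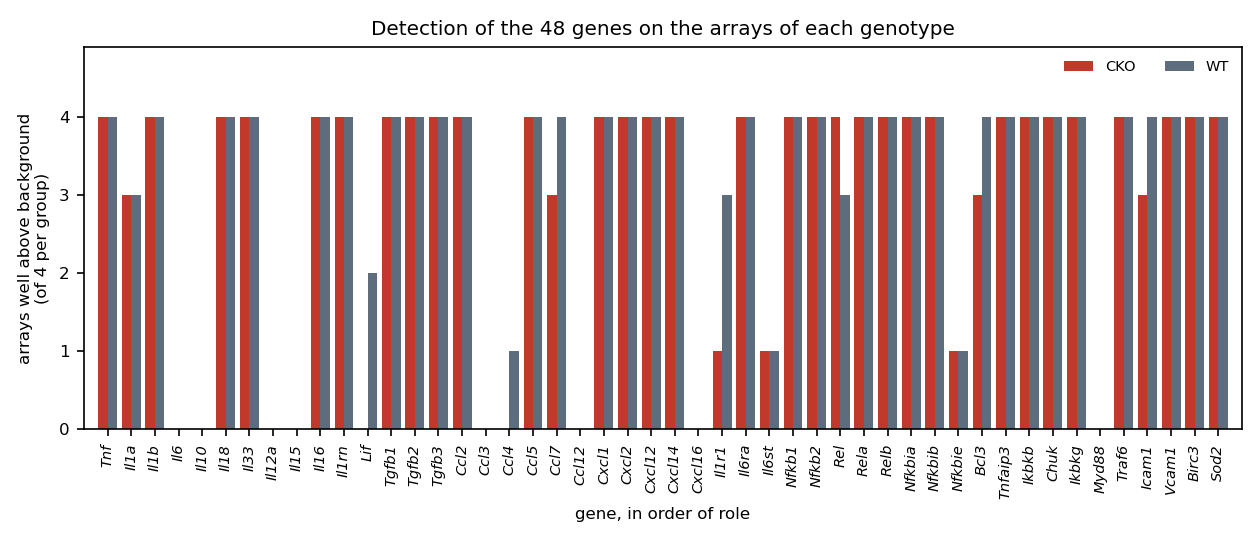
Number of arrays, of 4 CKO (red, left bars) and 4 WT (grey, right bars), on which each of the 48 genes was well above background, in order of role. Genes without a bar, such as Il6, Il10 and Ccl3, were above background on 0 arrays. Lif, Ccl4, Ccl7, Il1r1, Bcl3 and Icam1 have fewer CKO than WT arrays, and Rel has more. Of all probes, 72.2% to 79.2% were well above background on CKO arrays and 77.9% to 81.5% on WT arrays.

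Lif, an interleukin-6 family cytokine, differed in detection, with 0 CKO mice and 2 WT mice above background. Its mean log2 signal was -6.73 in CKO and -5.19 in WT mice. For a fold, each CKO array took its own Lif signal or its lowest well-above-background signal, whichever was higher. The WT mean was 1.43-fold above the mean of these. The WT mean took in all 4 WT mice, of which 2 were above background. The fold carries no sampling error either, so it is not a least difference. Lif did not enter the test over 29529 genes; with each probe tested and no filter its adjusted p was 0.784.

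Among the interleukin and TNF cytokines, 7 of 12 were tested, with 2 higher and 5 lower in CKO and a median of -0.21; none passed the test. The median was -0.07 with median scaling, -0.01 with the authors' values and -0.04 within slide 3. Tnf, the prototype inflammatory cytokine, had -4.20, -3.56, -3.85 and -3.97 in CKO 1 to 4, against -3.57, -3.92, -3.40 and -3.85 in WT 1 to 4. The groups overlapped throughout, and the difference was -0.21 (SE 0.20, limma adjusted p = 0.734). Its sign was positive with quantile normalization (0.08) and the authors' values (0.15). Il1b, the inflammasome-processed interleukin-1 ligand, had -2.15, -2.07, -2.56 and -2.35 in CKO mice, against -1.94, -1.92, -1.82 and -2.43 in WT mice. Every CKO value lay below WT 1, WT 2 and WT 3, but WT 4 was below CKO 1, CKO 2 and CKO 4. The difference was -0.25 (SE 0.19, limma adjusted p = 0.724) and came to -0.24 within slide 2 and -0.02 within slide 3.

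Il1rn encodes the decoy ligand that blocks the interleukin-1 receptor. It had 0.03, 0.41, -0.22 and -0.71 in CKO mice, against -0.14, 0.94, 0.38 and 0.33 in WT mice. CKO 2 lay above WT 1, WT 3 and WT 4, and the lowest values were CKO 4 and CKO 3. The difference was -0.50 (SE 0.29, 95% interval -1.16 to 0.16, limma adjusted p = 0.724), and -0.58 after blocking on slide. Slide 2 alone gave -0.44 and slide 3 alone -0.79. It was negative under each of the 25 alternative settings. Several of these, such as prior variance, sex and replicate number, left the estimate unchanged. The other tested genes of this role were Il1a, Il18, Il33 and Il16, an alarm cytokine, an inflammasome product, a nuclear alarmin and a chemoattractant for CD4+ cells. Their differences ranged from -0.30 for Il18 to 0.16 for Il1a.

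The 3 TGF-beta ligands, which restrain inflammation and keep microglia in their resting state, were all tested. Of these 1 was higher and 2 were lower in CKO, with a median of -0.09, and none passed the test. Tgfb1 had -3.19, -2.71, -4.79 and -3.52 in CKO mice, against -2.49, -3.75, -2.91 and -3.74 in WT mice. CKO 3 was the lowest, and without it the difference of -0.33 (SE 0.46, limma adjusted p = 0.789) became 0.08. The array holds this probe in 10 spots, whose SD within an array was 0.09 to 0.36, whereas the SD between mice was 0.89 for CKO and 0.63 for WT. Tgfb3 had -0.97, -1.11, -1.28 and -1.15 in CKO mice, against -1.52, -1.19, -1.18 and -1.35 in WT mice. Its difference of 0.19 (SE 0.15, limma adjusted p = 0.727) was close to its SD between mice (0.13 in CKO and 0.16 in WT). It was positive under every alternative that moved the estimate.

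Of 11 chemokines 7 were tested, and all 7 had a lower mean in CKO, with a median of -0.15 and a range of -0.33 to -0.07. None of the 7 passed the test. A lower mean in CKO was also found for 17264 of all 29529 genes. The direction depended on the scaling: 2 of the 7 were higher with median scaling and with quantile normalization, and 4 with the authors' values. Within slide 2 the median was -0.12 with 6 of 7 lower, and within slide 3 it was -0.01 with 4 of 7 lower.

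Ccl2, the main monocyte attractant, had 1.26, 1.55, 0.93 and 1.17 in CKO mice, against 1.57, 1.56, 1.64 and 0.74 in WT mice. The lowest of all 8 was WT 4 and the next lowest CKO 3, both on slide 3. The difference of -0.15 (SE 0.24, limma adjusted p = 0.808) was -0.20 within slide 2 and 0.31 within slide 3. Spots of the Ccl2 probe differed by an SD of at most 0.10 within an array, below the SD of 0.26 between CKO and 0.43 between WT mice. Cxcl1, a neutrophil attractant, was likewise lowest in CKO 3 and WT 4, with -2.70, -2.98, -3.37 and -3.0 in CKO mice, against -2.77, -2.53, -2.40 and -3.36 in WT mice (difference -0.25, SE 0.24, limma adjusted p = 0.738). It was -0.38 within slide 2 and 0.18 within slide 3.

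Ccl7, a monocyte attractant encoded next to Ccl2, had -3.95, -4.66, -5.91 and -5.35 in CKO mice, against -4.83, -4.52, -4.20 and -5.00 in WT mice. CKO 1 was the highest, CKO 3 was not well above background, and the groups overlapped (difference -0.33, SE 0.40, limma adjusted p = 0.765). Cxcl12, the ligand of Cxcr4 that steers neurons and microglia, had -0.45, -0.14, -1.27 and -0.00 in CKO mice, against -0.68, 0.04, -0.39 and -0.37 in WT mice. CKO 3 again stood apart, and the difference of -0.12 (SE 0.29, limma adjusted p = 0.874) was 0.15 without it.

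Chemokine genes lie in clusters, in which some neighbours were alike in detection and others were not. The 6 CC chemokine genes of the list lie within 1.63 Mb of chromosome 11, at 81850650 to 83478111 (mm9 probe positions). Ccl2 was above background in all 8 mice and Ccl7, whose probe starts 10.0 kb away, in 7, whereas Ccl12, 56.1 kb further on, was above background in none. Ccl5, a T-cell attractant, was above background in all 8 mice, Ccl3, at a distance of 122 kb, in none and Ccl4, another 16.7 kb on, in 1. On chromosome 5 the probes of Cxcl1 and Cxcl2 lie 12.7 kb apart, and both genes were above background in all 8 mice.

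Of the 3 receptors 2 were tested, both lower in CKO, and neither passed the test. Il1r1, the signalling receptor of interleukin-1, had -7.37, -4.28, -7.11 and -6.07 in CKO mice, against -5.21, -5.02, -5.26 and -5.03 in WT mice. It was well above background in 1 CKO mouse (CKO 2) and 3 WT mice, so it entered the test mainly through WT mice, and the values of the other 3 CKO mice and WT 3 have no order. The groups overlap, since CKO 2 holds the highest value. With those background-level values the fitted difference was -1.07 (SE 0.59, 95% interval -2.41 to 0.26, limma adjusted p = 0.724), -0.32 with quantile normalization and -0.06 with normexp correction before it. Without CKO 2 no CKO array was above background, and no difference is given. Il6ra, the ligand-binding interleukin-6 receptor, had 1.52, 2.35, 0.84 and 0.62 in CKO mice, against 0.81, 2.39, 2.34 and 1.87 in WT mice. The slide 3 CKO mice and WT 1 were low, and CKO 2, WT 2 and WT 3, all on slide 2, were close to each other. The difference was -0.52 (SE 0.46, limma adjusted p = 0.729), -0.71 after blocking on slide, -0.43 among slide 2 arrays and -1.14 among slide 3 arrays. Il6ra was lower in CKO under every alternative that moved its estimate, and passed the adjusted threshold in no alternative.

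**Figure D2:**
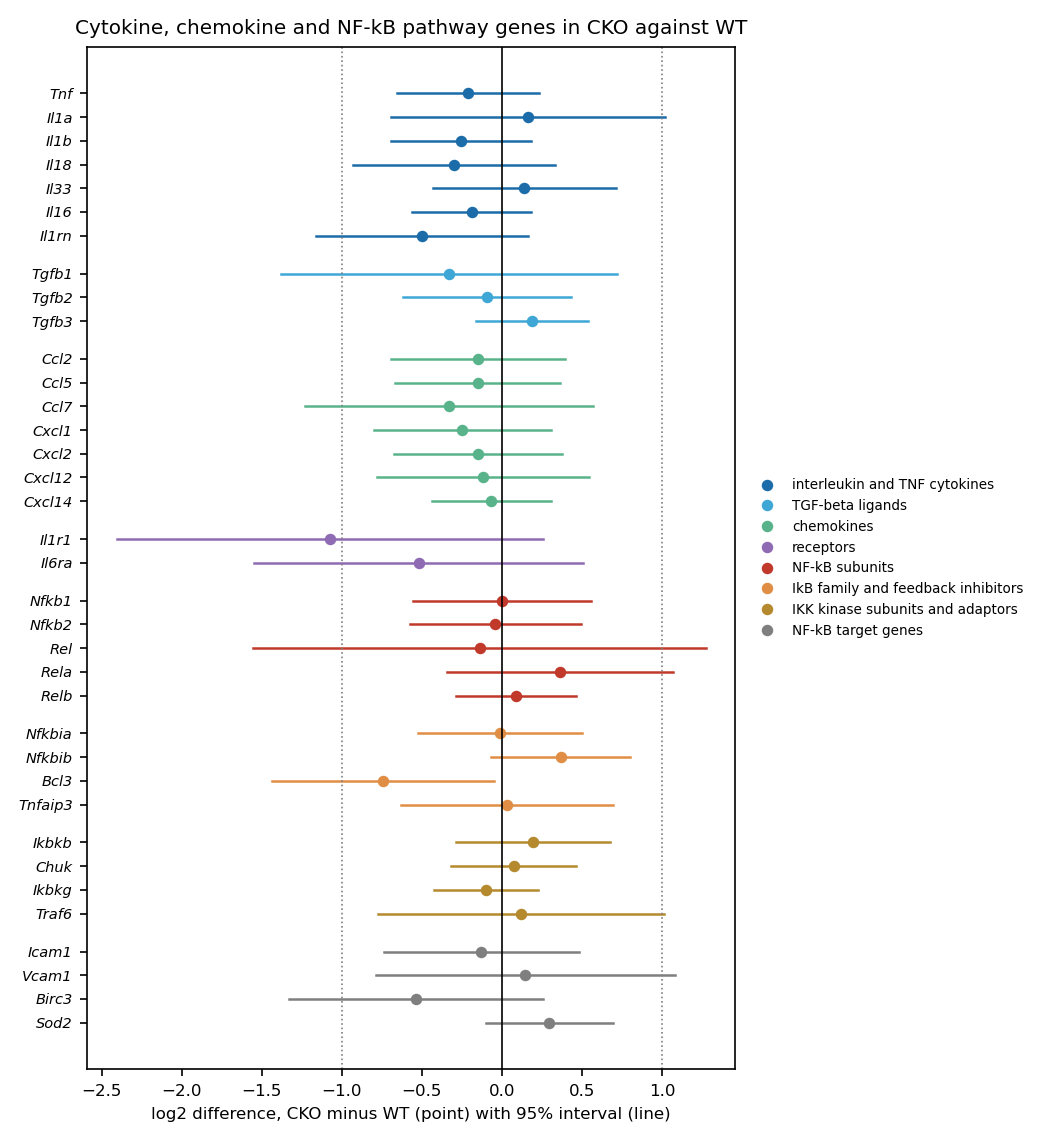
Log2 difference, CKO minus WT (x axis), for the 36 tested genes (rows, by role in colour), with points for the limma estimate and lines for its 95% interval; dotted lines mark a 2-fold difference either way. The interval excludes 0 for Bcl3 alone, and the estimates of Nfkb1 (0.00) and Nfkbia (-0.01) sit at 0.

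All 5 NF-kB subunits were tested, with 3 higher and 2 lower in CKO and a median of 0.00; none passed the test. All 5 were higher with median scaling and with the authors' values. Nfkb1, which encodes p105 and its product p50, had 0.33, 0.40, -0.06 and -0.41 in CKO mice, against -0.07, 0.37, 0.33 and -0.37 in WT mice. The values interleaved mouse by mouse, with the slide 3 arrays and WT 1 low, and the difference was 0.00 (SE 0.25, 95% interval -0.56 to 0.56). Relb, the partner of p52 in the noncanonical pathway, had 0.82, 0.75, 0.53 and 0.60 in CKO mice, against 0.70, 0.80, 0.53 and 0.31 in WT mice (difference 0.09, SE 0.17, limma adjusted p = 0.832). A second Relb probe gave 0.18.

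Rela, the p65 subunit with the activation domain, had -2.16, -1.75, -0.72 and -1.68 in CKO mice, against -1.79, -2.44, -1.81 and -1.72 in WT mice. CKO 3 was the highest and WT 2 the lowest, and the other 6 mice spanned -2.16 to -1.68. The difference of 0.37 (SE 0.31, limma adjusted p = 0.728) was 0.08 without CKO 3. Nfkb2 and Rel, the p100 and c-Rel subunits, differed by -0.04 and -0.14.

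In the IkB family and feedback inhibitors, 4 of 5 were tested, with 2 higher and 2 lower in CKO and a median of 0.01. None passed the adjusted threshold. Nfkbia (IkB alpha), the inhibitor that NF-kB itself induces, had 1.04, 1.37, 1.55 and 1.21 in CKO mice, against 0.91, 1.12, 1.34 and 1.84 in WT mice. The highest and the lowest were both WT mice, and the difference was -0.01 (SE 0.23, 95% interval -0.52 to 0.50, limma adjusted p = 0.987). Tnfaip3 (A20), a ubiquitin-editing enzyme that shuts off signalling to IKK, had -2.99, -3.08, -2.26 and -3.59 in CKO mice, against -2.89, -3.50, -2.92 and -2.75 in WT mice. Its difference was 0.03 (SE 0.29, limma adjusted p = 0.964) with CKO mice at both ends of the range.

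Nfkbib (IkB beta), which holds NF-kB dimers with slower turnover than IkB alpha, had 2.11, 2.16, 2.64 and 2.0 in CKO mice, against 1.62, 1.80, 1.94 and 2.08 in WT mice. All CKO values lay above WT 1, WT 2 and WT 3, and WT 4 lay above CKO 4 alone. The difference was 0.37 (SE 0.19, 95% interval -0.07 to 0.80, limma adjusted p = 0.724) and kept its sign under every alternative that moved it. Other probes of the gene gave -0.17 (SE 0.30) and 0.09 (SE 0.24).

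Bcl3, an atypical IkB protein that acts in the nucleus with p50 and p52, was the one gene with an unadjusted p under 0.05 before slides were taken into account. With a fixed block for slide it was no longer under 0.05. Il1rn and Il6ra then were, both lower, beside 1112 of all genes lower and 705 higher. With slide as a random block, and within slide 2, Bcl3 stayed under 0.05 unadjusted. Bcl3 had -5.28, -4.04, -4.34 and -3.96 in CKO mice, against -3.43, -3.64, -3.48 and -4.11 in WT mice. CKO 1, the lowest, was not well above background, and WT 4 fell within the CKO range. The difference was -0.74 (SE 0.31, 95% interval -1.44 to -0.05, limma adjusted p = 0.724). It was -1.10 within slide 2, -0.04 within slide 3, -0.44 with quantile normalization and -0.13 with normexp correction before it. Without CKO 1 it was -0.45, and its unadjusted p was no longer under 0.05. The unadjusted p of Bcl3 was also not under 0.05 with median scaling, quantile normalization, normexp correction or the authors' values. Nor was it with a trended and robust prior, a replicate block or males only, or without CKO 3, WT 1, WT 2 or WT 3.

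**Figure D3:**
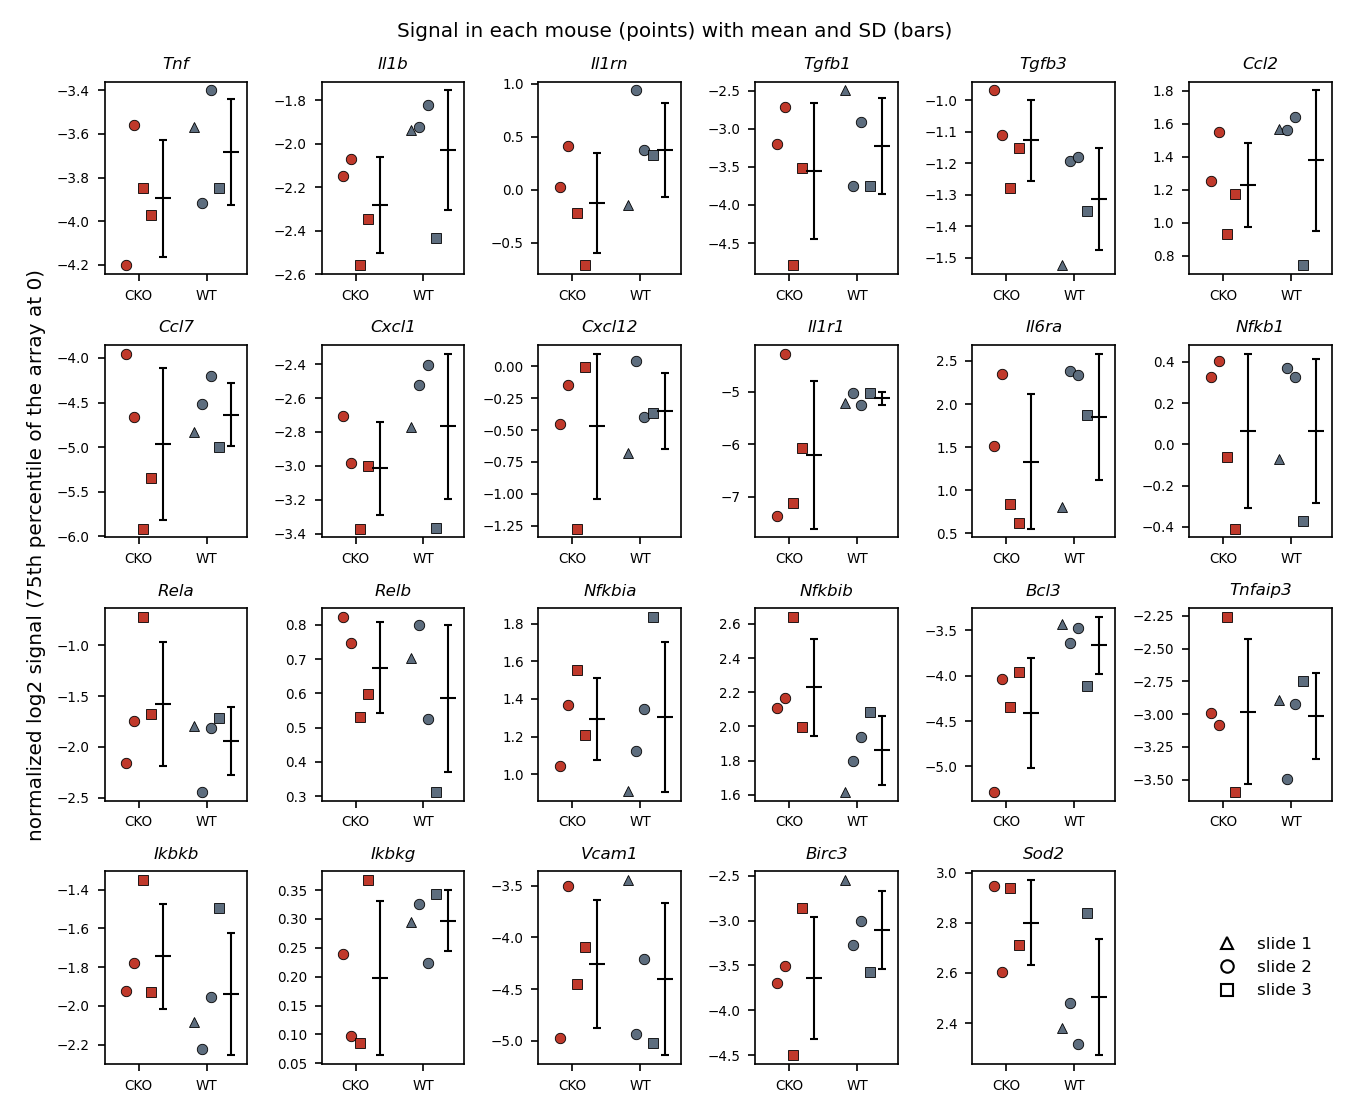
Normalized log2 signal (y axis, the array's 75th percentile at 0) of the 23 tested genes described by mouse, in CKO (red, left) and WT mice (grey, right), with marker shape giving the slide and bars the mean and SD of 4 mice. In every panel the groups overlap, and in Ccl2, Cxcl1 and Nfkb1 the WT mouse of slide 3 lies at the bottom of its group.

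Of the IKK kinase subunits and adaptors 4 of 5 were tested, with 3 higher and 1 lower in CKO, a median of 0.10 and none past the test. Ikbkb (IKK beta), the kinase of the canonical pathway, had -1.92, -1.78, -1.35 and -1.93 in CKO mice, against -2.08, -2.22, -1.96 and -1.50 in WT mice. The highest values were CKO 3 and WT 4, both on slide 3, and the difference was 0.19 (SE 0.21, limma adjusted p = 0.754). Ikbkg (NEMO), the scaffold of the kinase complex, had 0.24, 0.10, 0.08 and 0.37 in CKO mice, against 0.29, 0.33, 0.22 and 0.34 in WT mice. It had the narrowest interval described here, -0.42 to 0.22 around -0.10 (limma adjusted p = 0.792), and its second probe gave -0.07. Chuk (IKK alpha) differed by 0.07.

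The NF-kB target genes were all tested, with 2 of 4 higher and 2 lower in CKO, a median of 0.01 and none past the test. Sod2, the mitochondrial superoxide dismutase, had 2.95, 2.60, 2.94 and 2.71 in CKO mice, against 2.38, 2.48, 2.32 and 2.84 in WT mice. Every CKO value was above 3 of the WT mice, and WT 4 was above CKO 2 and CKO 4 (difference 0.30, SE 0.18, limma adjusted p = 0.724). The difference was 0.38 within slide 2 and -0.01 within slide 3. Birc3 (cIAP2), a survival ubiquitin ligase, had -3.69, -3.50, -4.50 and -2.86 in CKO mice, against -2.55, -3.28, -3.01 and -3.57 in WT mice (difference -0.54, SE 0.35, limma adjusted p = 0.724). It was -0.25 without CKO 3, -0.35 without WT 1, -0.32 after blocking on slide, -0.11 within slide 3 and -0.11 for the mean of its probes. Vcam1, an endothelial adhesion molecule, had -4.97, -3.50, -4.45 and -4.09 in CKO mice, against -3.44, -4.94, -4.20 and -5.03 in WT mice. Its difference of 0.15 (SE 0.41, limma adjusted p = 0.889) was small beside a spread of 0.62 (SD) in CKO and 0.74 in WT mice. Icam1, another adhesion molecule, differed by -0.13.

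Secreted signals and pathway components were also set side by side, as values. The 17 tested secreted signals had 3 genes higher and 14 lower in CKO, with a median of -0.15. The 17 tested NF-kB components had 10 higher and 7 lower, with a median of 0.03. Over all genes 12265 were higher and 17264 lower. The counts depended on the scaling. With median scaling the secreted signals had 6 higher and 11 lower (median -0.01) and the components 15 higher and 2 lower (median 0.18). With the authors' values these were 8 and 9 (median -0.01) for the signals and 13 and 4 (median 0.12) for the components, and with quantile normalization 6 and 11 (median -0.06) and 12 and 5 (median 0.15). After blocking on slide these medians were -0.15 and 0.06. Slide 2 alone gave -0.12 and 0.02, and slide 3 alone -0.04 and -0.01. The difference between the medians was not tested. Signal strength moved with the direction over all genes: the median difference was -0.37 for genes with a mean under -3, -0.17 from -3 to -1 and 0.07 above -1. The 36 genes had -0.21, 0.12 and -0.08 in the same ranges (11, 9 and 16 genes), and the part of signal strength in these medians was not tested.

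For 9 of the 48 genes the array holds several probes, and in 6 of these their signs differed. Among the 6 genes with several probes that passed the filter, the signs differed in 4 (Birc3, Cxcl12, Nfkbib and Tgfb2). The second Birc3 probe gave 0.32, against -0.54 for the first, and its position in the files is on chromosome 12, whereas the first lies on chromosome 9. The second Cxcl12 probe, matched to another transcript of the gene, gave 0.16 against -0.12, and the second Tgfb2 probe gave 0.20 against -0.09. Traf6, the ubiquitin ligase between Myd88 and IKK, was looked at for its probes after its values were seen. Its brighter probe differed by 0.12, with -0.57 within slide 2 and 1.34 within slide 3. Its other probe was above background in 0 CKO and 2 WT mice. Computed as for Lif and with the same limits, the fold of this dim probe was 1.81, lower in CKO. With each probe tested and no filter, the limma adjusted p of the dim probe was 0.784.

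**Figure D4:**
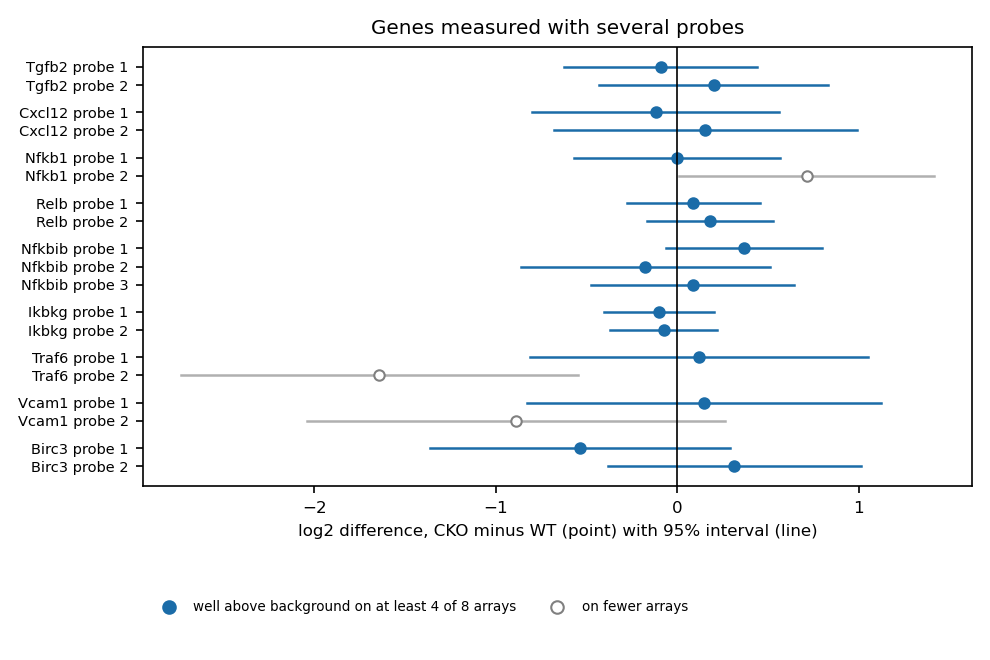
Log2 difference, CKO minus WT (x axis), of each probe for the 9 genes with several probes, with 95% intervals as lines and the probe used in the test as probe 1; filled points were well above background on at least 4 of 8 arrays. Probes of Birc3, Cxcl12, Nfkbib and Tgfb2 lie on both sides of 0, and the second Traf6 probe, dim on most arrays, lies at -1.64.

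Of 80 other genes listed for the same pathways, 63 were tested, with 26 higher and 37 lower in CKO, a median of -0.03 and none past the adjusted threshold. Other cytokine and chemokine receptors had 3 higher and 15 lower of 18 tested, with a median of -0.18, beside 17264 lower of all 29529 genes. The median of these receptors was -0.02 with quantile normalization, -0.14 after blocking on slide and -0.08 within slide 3. Other NF-kB signalling genes had 17 higher and 16 lower of 33 tested, with a median of 0.00, and other target genes had 6 higher and 6 lower of 12, with a median of -0.02. In 2 of the 63 the groups did not overlap, a share near the 3.32% of all genes, and these were also the ones with an unadjusted limma p under 0.05. Tank, which binds TRAF proteins and restrains NF-kB signalling, had -1.03, -1.61, -1.30 and -1.63 in CKO mice, against -0.99, -0.88, -0.94 and -0.73 in WT mice (difference -0.51, SE 0.18, limma adjusted p = 0.724). Ccnd1, cyclin D1, had 1.54, 1.48, 1.97 and 1.52 in CKO mice, against 1.34, 1.05, 0.68 and 1.30 in WT mice (difference 0.54, SE 0.20, limma adjusted p = 0.724). Both groups of values were separate, yet neither difference passed once adjusted over all genes.

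Markers of the cell types that the tissue holds were read beside these genes, since many are made outside neurons. Summed signal is given on the linear scale, in multiples of the array's 75th percentile. All 10 excitatory neuron markers were above background on every array, with sums of 149 to 189 in CKO and 141 to 173 in WT mice. Of 15 microglia markers 13 were above background on every array, and 13 of 14 tested had a higher CKO mean (median difference 0.20), with sums of 96.1 to 128 in CKO and 82.9 to 111 in WT mice. Astrocyte markers had a median of 0.24 over 8 tested, with sums of 26.7 to 37.9 in CKO and 25.0 to 27.0 in WT mice. Oligodendrocyte markers had 0.19 over 9 tested, with sums of 41.8 to 45.9 in CKO and 38.6 to 52.1 in WT mice. Choroid plexus markers had 0.37 over 7 tested (7.77 to 14.6 in CKO and 4.42 to 7.84 in WT mice), and endothelial and pericyte markers -0.05 over 9 tested (2.22 to 3.72 in CKO and 2.62 to 3.68 in WT mice). None of the 57 tested markers passed the adjusted threshold. At an unadjusted limma p under 0.05, 8 of the 57 were higher and 1 lower in CKO, beside 2.50% and 2.80% of all genes. In 4 of the 57 (Laptm5, Mag, Ttr and Kl) all CKO values lay above all WT values, beside 579 of all 29529 genes. The Itgam probe made up 53.3 to 84.6 of the microglia sum in CKO and 47.6 to 69.3 in WT mice. The sums overlap between the genotypes in every list, by little for astrocyte and choroid plexus markers, and the part of any cell type in the values of the 48 genes was not tested.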

How the data were processed

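Hippocampal RNA from anti-HA pull-downs went through whole transcriptome amplification and Cy5 labelling, per the labels' protocols. The deposited scanner files hold the red intensity of each spot, background-subtracted and detrended within the array, per the file headers; Agilent Feature Extraction 11.5 is named in the submitters' processing notes. Probe coordinates are on mm9, per the file headers. The deposited flags of each spot (other values, 0 or 1) gave detection. A table of authors' intensity values on a linear scale served as an alternative; its normalization is not given in the sources used here.

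Of 62976 spots 59305 were not controls; outlier spots were dropped and the rest averaged by probe. This left 55663 of 55681 probes, and 0 spots were saturated. Log2 processed signal was taken minus the array's 75th percentile. The filter kept probes that 4 or more of the 8 arrays marked well above background, with the brightest probe per gene. CKO and WT were compared in R 4.3.3 with limma 3.58.1 (two-sided, Benjamini-Hochberg over 29529 genes, threshold 0.05), which was tested on simulated data. For Lif and the dim Traf6 probe, a fold was taken with CKO signals under the array's lowest well-above-background signal raised to it.

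Genes given mouse by mouse were 14 chosen for their role, every member with an unadjusted p under 0.05 or groups that do not overlap, and the 2 smallest p in each of 8 roles, plus pathway genes with an unadjusted p under 0.05. Members, lists and rules were chosen with earlier results of these data known. Alternatives covered scaling, background correction, filters, probes, prior variance, slide, sex, replicate number and each array left out. The labels call the mice biological replicates. The number of arrays limits the precision.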

Additional observations from a re-analysis of the deposited data

Results flagged for a closer look

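Within groups of 4 mice, 1 value stood far from the rest for each of 2 genes. Ccl2 was 0.74 in WT 4, against 1.56 in the nearest WT mouse, WT 2. Rela was -2.44 in WT 2, against -1.81 in the nearest, WT 3. These are 2 of 54 groups examined, where chance marks about 1 in 20. Without WT 4 the Ccl2 difference was -0.36, against -0.15 with all 8 mice.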

How the results depend on the processing

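Across 25 alternative settings none of the 36 tested genes passed the adjusted threshold in any. The smallest adjusted p of a gene described by mouse was 0.329 (Il1r1 without CKO 2, where no CKO array was above background) and otherwise 0.363. The count over all genes, 1 as reported, was 0 with quantile normalization, the authors' values, a test of each probe, within slide 2, males only and quantile-normalized values blocked on slide (chosen after seeing the data). It was 4 with normexp and quantile normalization, 2 with no filter, 5 with probes above background on all 8 arrays, 4 with a trended and robust prior, 13 with the slide as a random block and 3 with sex as a covariate. Leaving out each mouse gave 0 to 2. Deviations of same-numbered CKO and WT arrays from their group means had correlations of -0.32, 0.39, -0.42 and 0.07 for numbers 1 to 4. Arrays numbered 1 and 3 lie on different slides in CKO and WT, so these values cannot decide whether the numbers pair the mice. The replicate block gave 0 genes. The unadjusted count of all genes was 338 higher and 526 lower without CKO 3, and 1559 higher and 2381 lower without WT 4. Of 572 values for 23 genes under the alternatives, 45 had the other sign, in 14 genes, with neither value past the threshold. The no-filter, prior variance, sex and replicate number settings left the estimates unchanged, so their signs could not differ. Nfkb1 changed sign most often (7 settings). The 9 genes that kept their sign were Bcl3, Birc3, Il1b, Il1r1, Il1rn, Il6ra, Nfkbib, Rela and Tgfb3. Il1r1 entered the test mainly through WT mice and its sign rests on background-level CKO values, so its place in this list carries no weight. Signal near background limits the 6 tested genes not above background on all 8 arrays (Il1a, Ccl7, Il1r1, Rel, Bcl3 and Icam1) and the 12 untested genes.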
